A study of Physcomitrium patens with 4 samples.

Results

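To describe the net change over the whole culture, moss cells cultured for 72 h were compared with freshly prepared protoplasts (0 h). These are 2 of the 4 libraries of the series, chosen by their labelled culture time, and the other libraries hold cells at 24 and 48 h. All 4 come from the moss Physcomitrium patens and from a wild type strain, with no transgene or genotype difference between them. Protoplasts were released from protonemata, the filaments of the young moss, with a wall-digesting enzyme in mannitol. They were cultured in liquid medium without hormones, in the dark for the first 24 h and then under 16 h of light and 8 h of dark. The study pooled the samples of each time point to isolate RNA, so each side of the comparison is 1 library without replicates. Culture time, light and library cannot be told apart.

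A protoplast is a plant cell stripped of its wall. In mosses such a cell can regenerate without added hormones: it rebuilds a wall, re-enters division and grows into a new filament. Digital gene expression (DGE) tag profiling cuts each transcript at its CATG site nearest the 3′ end and sequences a short tag there, so that a tag stands for a transcript whatever the length of the gene. Genes carry the moss identifiers of the files, and the symbols are those of the Arabidopsis match given there. A symbol therefore names a likeness and not a tested function in the moss, and several moss genes can share it. Roles given below are those known in Arabidopsis or other flowering plants, unless said otherwise.

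The gene tags summed to 1750184 to 2445814 per library, with 2247746 at 0 h and 2445814 at 72 h, where 3 tags stand at 1.33 and 1.23 per 1000000 tags. The deposited counts leave out tags seen once, so a ratio against a count of 0 is given as a lower bound that puts 3 tags in its place. Genes of green cells were present on both sides. Of 93 genes of the photosystems and their electron carriers, 92 had tags at 0 h and 84 at 72 h. Of 47 genes in the antenna list, 43 and 44 had tags. No list of markers for other moss cell types was analysed here.

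At 72 h fewer genes had tags, and few genes held many of them. Tags were counted for 16710 genes at 0 h and 14340 at 72 h. A random draw of the 72 h tags to the size of the 0 h library left 14334.5 genes, as the mean of 20 draws. The draw evens out only the number of tags. By the study's figures, the 72 h library lost a much larger part of its raw tags to adaptor trimming than the 0 h library. It also had fewer distinct clean tags and a lower mapping rate of distinct tags. Counted by all clean tags, the part on genes was larger at 72 h, 72.5% against 67.8% at 0 h. Whether these differences bear on the number of genes or on the spread of tags was not tested. Tags of 13478 genes were seen in both, of 3232 at 0 h and not at 72 h, and of 862 at 72 h and not at 0 h. Among the genes missing on one side, 83 had 100 or more tags at 0 h and 12 had 100 or more at 72 h. In time order from 0 to 72 h, 50% of the tags lay on 967, 935, 441 and 198 genes. In bulk RNA, fewer cells of a type and less RNA per cell cannot be told apart.

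Of 14375 genes whose tags at 0 and 72 h summed to 10 or more, 875 (6.09%) were called higher and 1135 (7.90%) lower at 72 h, 14.0% in all. A call needed a change of at least 4-fold, at least 100 tags in the higher library, and a p and a Benjamini-Hochberg adjusted p of at most 0.01 in edgeR's exact test with counting error alone. Of the 5540 genes with enough tags to be called, 15.8% were called higher and 20.5% lower. With 1 library a side, no spread among cultures enters this test. It sets library against library rather than condition against condition, and its p-values are not given. The intervals below are exact 95% intervals of the ratio. They cover counting error only, as amplified tags without molecular identifiers are not independent molecules.

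Genes called higher changed by a median of 7.35-fold and genes called lower by a median of 8.89-fold. The scaling of the libraries moved the balance. TMM, a trimmed mean of log ratios between libraries, set the effective sizes at 2656439 tags for 0 h and 1697431 for 72 h. The median log2 ratio of all genes tested was then -0.32, and 43.5% of the calls were higher. Scaling by total gene tags shifted every log2 ratio by -0.77, which gave 485 genes higher (3.37%) and 1808 lower (12.6%), with 21.2% of the calls higher. Values below are those of TMM. Counts of a list under total tags stand beside those with TMM or in brackets after them, in the same order, and a named call that total tags do not give is said to hold with TMM only.

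**Figure D1:**
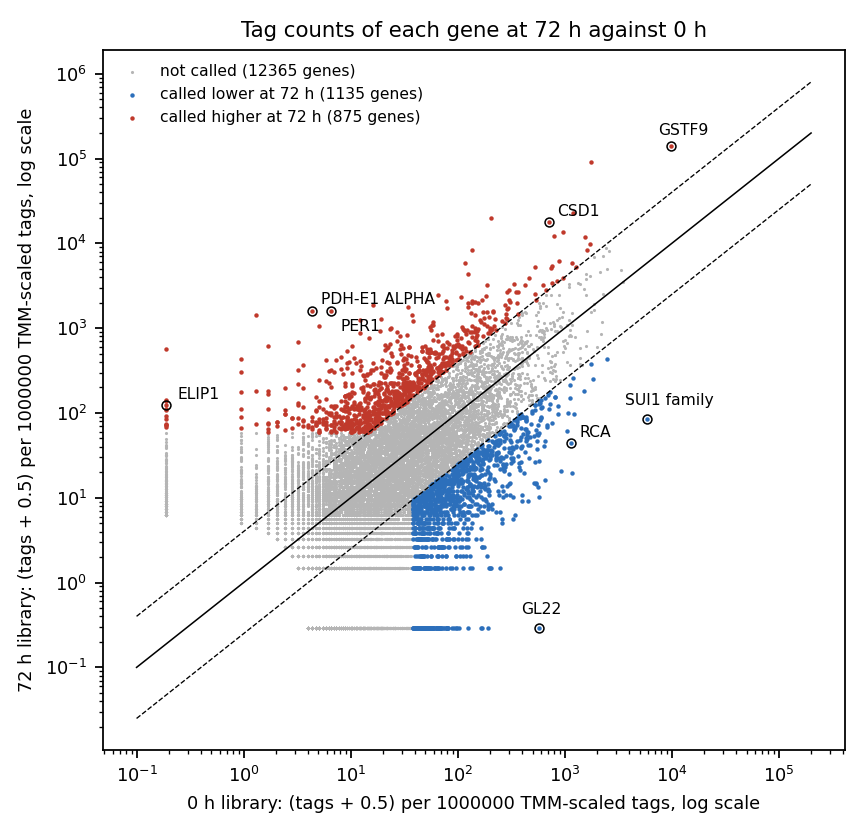
Tags of each tested gene at 72 h (vertical axis) against 0 h (horizontal axis), as tags plus 0.5 per 1000000 TMM-scaled tags, both axes on a log scale. The solid line marks equal levels and the dashed lines 4-fold changes; 875 genes called higher are red, 1135 called lower are blue, and 12365 genes that were not called are grey.

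The share of tags on called genes shows how far the cells' transcripts had shifted. From 0 to 72 h, the genes called higher held 7.97%, 16.5%, 17.1% and 50.4% of the tags of the successive libraries. Over the same times, the genes called lower held 20.8%, 11.4%, 8.86% and 1.48%. A few genes carried much of the first rise: without the genes that exceed 1% of any library, the genes called higher went from 6.505% to 38.4%. These calls chose the genes, so the shares describe the size of the change and test nothing.

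The largest rises included enzymes of redox chemistry and a protein known from drying tissue. The LEA gene Pp1s118_232V6 had 8, 640, 222 and 1161 tags at 0, 24, 48 and 72 h, 227-fold higher at 72 h (95% interval 115 to 527). LEA proteins accumulate in drying seeds and tissues. PER1 (Pp1s12_126V6), a 1-cysteine peroxiredoxin that reduces peroxides, had 17, 3643, 551 and 2673 tags, 246-fold higher (153 to 423). VEP1 (Pp1s12_260V6), a Rossmann-fold reductase, had 9, 538, 105 and 622 tags, 108-fold higher (56.6 to 238). All 3 were already high at 24 h and lower at 48 h than on either side. A zinc-binding dehydrogenase (Pp1s128_127V6) went from 32 tags at 0 h to 2122 at 72 h, 104-fold higher. An NAD(P)-linked oxidoreductase (Pp1s141_128V6) had 0, 594, 235 and 190 tags, at least 99.1-fold higher.

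Other leading genes rose late or peaked before 72 h. PDH-E1 ALPHA (Pp1s199_145V6), whose Arabidopsis match is a subunit of the plastid pyruvate dehydrogenase that makes acetyl-CoA for fatty acids, had 11, 2, 13 and 2729 tags, 388-fold higher at 72 h (217 to 779). It was near the floor in each of the first 3 libraries. Pp1s195_15V6, described as a single hybrid motif protein, had 13, 19, 36 and 1822 tags, 219-fold higher (128 to 413). CSI1 (Pp1s71_240V6), which links cellulose synthase to microtubules, had 144 tags at 72 h and 0 in the other libraries, at least 75.1-fold higher than at 0 h. GGH1 (Pp1s26_236V6), a hydrolase of the glutamate tail of folates, instead peaked early, with 8, 3779, 3241 and 551 tags, and was still 108-fold higher at 72 h (54.3 to 251). The remaining genes of the 12 largest rises were a PQ-loop membrane protein (Pp1s9_402V6, 2 to 510 tags), a plectin-related gene (Pp1s14_47V6, 0 to 122 tags) and ELIP1, described with the antenna.

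The strongest falls included wall proteins, regulators and a translation factor gene. GL22 (Pp1s97_59V6), a germin-like protein of the extracellular matrix, had 1515, 148, 35 and 0 tags, at least 323-fold lower at 72 h. It had the most tags at 0 h of any gene without tags at 72 h. LAC12 (Pp1s17_180V6), a laccase that oxidises phenolic compounds in the wall, had 509, 3, 14 and 0 tags, at least 108-fold lower. The peroxidase gene Pp1s433_15V6 had 520, 2, 180 and 2 tags, 166-fold lower (45.8 to 1375). These 3 genes had lost most of their tags by 24 h, and the peroxidase had regained some at 48 h.

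Regulators among the largest falls went down in steps. CUC2 (Pp1s259_58V6), a NAC factor of organ boundaries in Arabidopsis, had 445, 253, 35 and 0 tags, at least 94.8-fold lower. The AP2/ERF factor Pp1s15_186V6 had 663, 114, 5 and 2 tags, 212-fold lower (58.4 to 1753). A kinase of the integrin-linked family (Pp1s179_14V6) had 547, 102, 68 and 2 tags, 175-fold lower (48.2 to 1447). In each of the 3, the count was lower in every library than in the one before.

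SUI1, or eIF1, helps the ribosome find the start codon. A gene of this family (Pp1s4_134V6) had 15742 tags at 0 h, more than any gene but GSTF9, and then 1993, 147 and 145 tags, 69.4-fold lower at 72 h (58.9 to 82.3). Plastid proteins also stood among the largest falls. A gene matched to peroxiredoxin Q (ATPRX Q, Pp1s233_104V6), a thiol peroxidase of plastids, went from 438 to 0 tags, at least 93.3-fold lower. The study's discussion instead gives this identifier as a homologue of PRMT4B, a protein arginine methyltransferase. Which name is right was not tested. EGY3 (Pp1s403_11V6), a membrane protein of chloroplasts, went from 531 to 2 tags, 170-fold lower (46.7 to 1404). The last 3 of the 12 were a putative PRLI-interacting factor (Pp1s376_34V6, 3103 to 33 tags), an acyl-CoA N-acyltransferase (Pp1s389_55V6, 273 to 0 tags) and a protein of unknown function (Pp1s127_40V6, 255 to 0 tags).

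**Figure D2:**
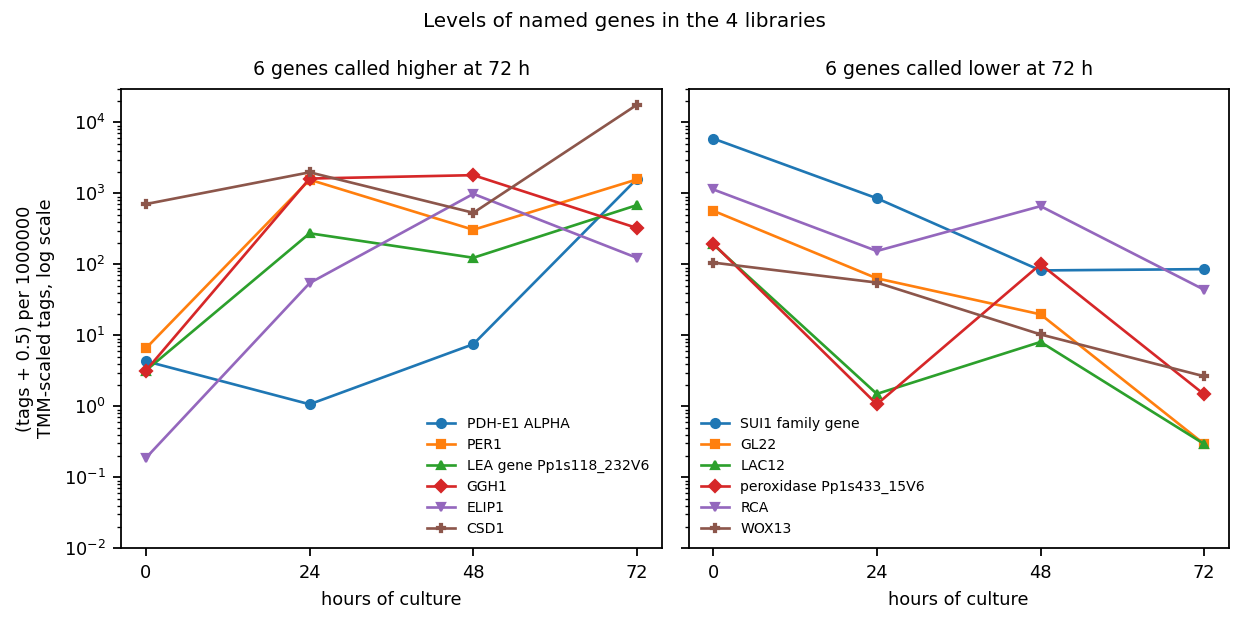
Levels of 6 genes called higher (left) and 6 called lower (right) at 72 h, as tags plus 0.5 per 1000000 TMM-scaled tags on a log axis, against hours of culture; each point is 1 library and lines join the points of a gene. PDH-E1 ALPHA was high at 72 h alone, PER1 and the LEA gene were already high at 24 h, ELIP1 peaked at 48 h, and RCA and the peroxidase gene were low at 24 h, higher at 48 h and lowest or near it at 72 h.

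The most abundant genes at 72 h were headed by glutathione S-transferases, which attach glutathione to reactive compounds, and by genes without an Arabidopsis description. GSTF9 (Pp1s66_172V6) had 26187, 5006, 3319 and 236061 tags, or 1.17% (95% Wilson interval 1.15 to 1.18) of the tags at 0 h and 9.65% (9.61 to 9.69) at 72 h, 14.1-fold higher. It was the most abundant gene on both sides, with a low between them. Pp1s181_57V6, which has no description, went from 0.206% of the tags at 0 h (0.201 to 0.212) to 6.404% at 72 h (6.37 to 6.43), 52.8-fold higher. CSD1 (Pp1s44_277V6), a copper/zinc superoxide dismutase that removes superoxide in the cytosol, went from 1879 tags to 30142, 25.1-fold higher. Of the other genes without a description, Pp1s350_5V6 rose from 3205 to 38676 tags and Pp1s52_261V6 from 548 to 33573. These 5 genes each held over 1% of the tags at 72 h, where 1 gene did at 0 h, and the top 10 genes took 24.2% against 4.39%. Whether amplification of single tags added to these counts was not tested.

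Other genes of the top 10 at 72 h also rose. GSTF10 (Pp1s75_107V6) went from 2124 to 20690 tags, and POP2 (Pp1s355_46V6), the transaminase that breaks down gamma-aminobutyrate, from 4082 to 20139, 7.72-fold higher. A ribosomal protein L10 gene (Pp1s38_196V6) went from 4580 to 16789 tags, 5.74-fold higher, a call that total tags do not give. LHCB2.2 (Pp1s213_80V6), an antenna protein of photosystem II, had 6420, 2855, 31399 and 15146 tags. Its ratio of 3.69 (3.59 to 3.80) was under the 4-fold limit, and its highest count was at 48 h.

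Most of the other genes in the top 10 at 0 h were not called. TCTP (Pp1s33_209V6), the translationally controlled tumour protein, had 8916 tags at 0 h and 8214 at 72 h, a scaled ratio of 1.44 that total tags turn below 1. The ratios of the undescribed genes Pp1s109_232V6 and Pp1s30_87V6 were 1.02 and 1.09, and total tags turn these below 1 as well. CCR1 (Pp1s42_251V6), an RNA-binding protein of cold and circadian responses, KCS11 (Pp1s245_24V6), an enzyme of fatty acid elongation, and a further GSTF9 gene (Pp1s26_72V6) had ratios of 3.16, 3.15 and 2.02, none of them called. The ribosomal protein S30 gene Pp1s283_53V6 fell from 6598 to 733 tags, 5.75-fold lower.

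Gene lists drawn from the Arabidopsis descriptions were set against the background of 6.09% called higher and 7.90% called lower. A call needs 100 tags, which 33 of 44 antenna, 319 of 441 ribosomal and 92 of 196 heat shock and chaperone genes reached. In the cell cycle list 11 of 98 did. A list of abundant genes can therefore exceed this background by its tag counts alone. Among all genes with enough tags, 15.8% were called higher and 20.5% lower. Their counts and medians describe the lists, and no test of a list was made. The members were known with earlier results of these data in view, and a gene can stand in several lists. Up to 3 called genes in each direction are named in a list by the size of their change, and any other called member was chosen after its values were seen.

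**Figure D3:**
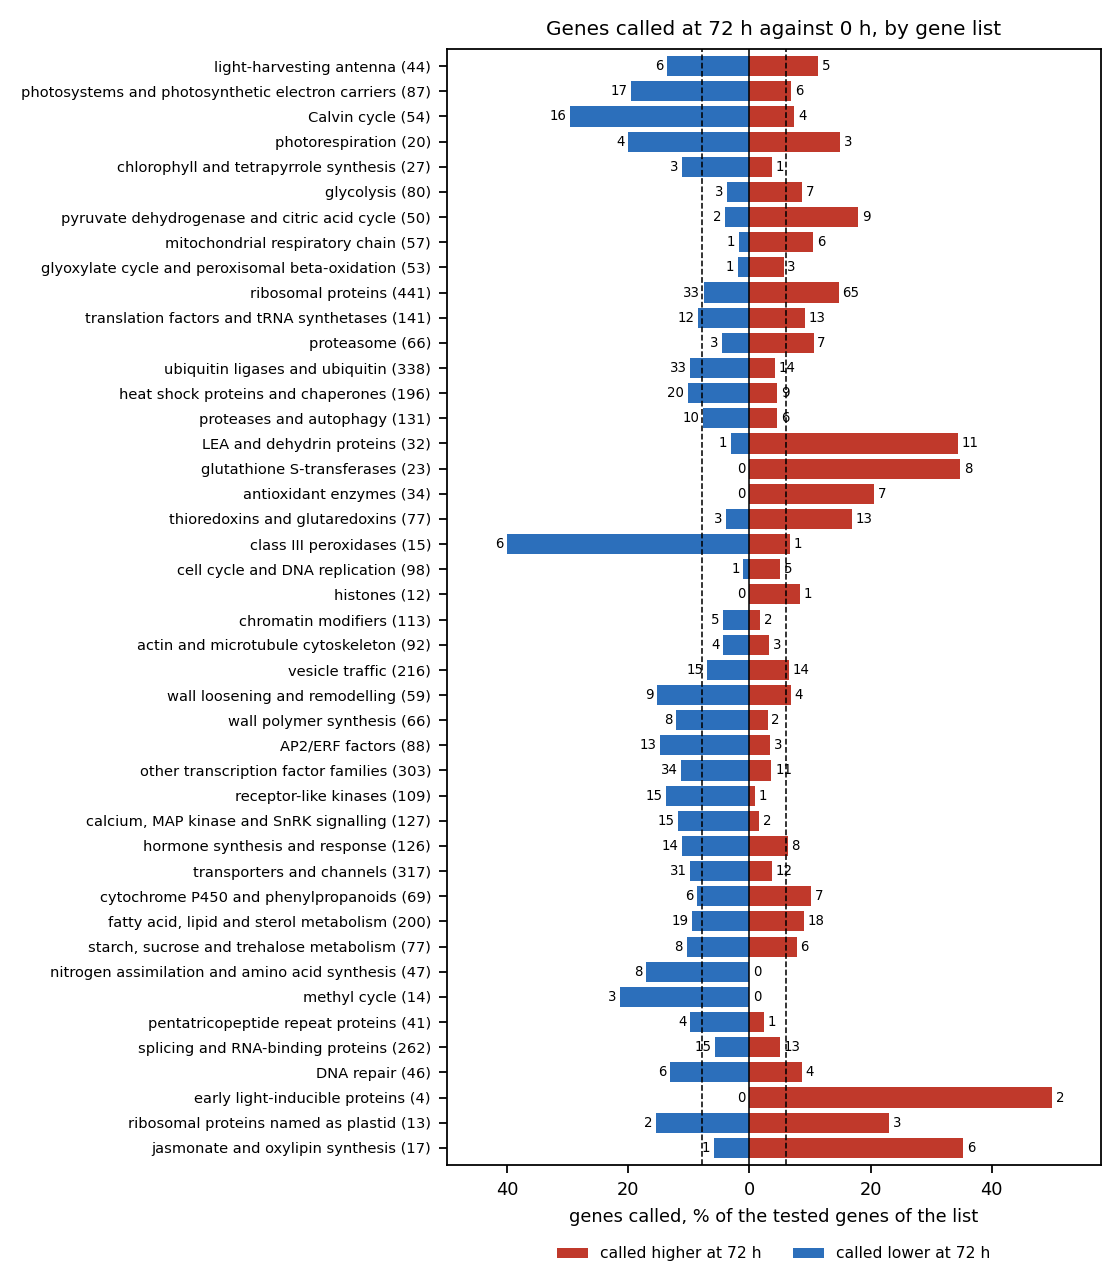
Genes called higher (red, to the right) and lower (blue, to the left) at 72 h in each of 44 gene lists, as % of the tested genes of the list, whose number stands in brackets; figures at the bars are genes. The dashed lines mark the share of all tested genes, 6.09% higher and 7.90% lower. Calvin cycle and peroxidase genes reach far to the left, and LEA, glutathione S-transferase and jasmonate genes to the right. The jasmonate list was added after values were seen.

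Genes of carbon fixation were lower at 72 h more often than the background, and the antenna list was split with TMM. The Calvin cycle turns carbon dioxide into sugar phosphates with the enzyme rubisco at its entry. Of 54 tested Calvin cycle genes, 16 fell and 4 rose (19 and 4 under total tags), and the median log2 ratio was -0.92 against -0.32 over all genes. RCA, rubisco activase, fell in 3 genes: Pp1s258_44V6 had 3022, 360, 1186 and 74 tags, 26.1-fold lower (20.7 to 33.3), and Pp1s5_83V6 had 463, 215, 554 and 4 tags, 74.0-fold lower (28.7 to 273). A rubisco small subunit gene (Pp1s545_4V6) went from 258 to 2 tags, 82.4-fold lower, and 3 further small subunit genes fell 15.7-fold to 45.05-fold. The 4 rises were in enzymes that the cycle shares with glycolysis, triosephosphate isomerase (TIM, Pp1s38_15V6, 63 to 865 tags, 21.5-fold; Pp1s1_168V6, 47 to 285 tags, 9.49-fold) and phosphoglycerate kinase (PGK, Pp1s59_111V6, 44 to 289 tags, 10.3-fold; Pp1s56_223V6, 24 to 131 tags, 8.54-fold). A phosphoglycerate kinase gene with more tags, PGK1 (Pp1s201_82V6), went the other way, from 1047 to 67 tags, 9.99-fold lower. Which of these genes encode plastid and which cytosolic forms was not tested, so how many of the rises belong to the cycle is not known. Calvin cycle genes held 1.001% of the tags of fresh protoplasts (0.988 to 1.01), 0.375% and 2.41% of those at 24 and 48 h, and 0.351% of those at 72 h (0.343 to 0.358). The 72 h level was thus below that of fresh protoplasts after a higher level at 48 h.

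In the photosystems and their electron carriers, 17 of 87 genes fell and 6 rose (23 and 4 under total tags), and the median of -0.32 was that of all genes. PSBQA (Pp1s1_461V6), a protein of the oxygen-evolving side of photosystem II, had 514, 29, 3706 and 20 tags, 16.4-fold lower. ATPC1 (Pp1s372_16V6), the gamma subunit of the chloroplast ATP synthase, went from 212 to 0 tags, at least 45.2-fold lower. PSAH2 (Pp1s206_11V6) encodes a photosystem I subunit and rose, with 108, 42, 10732 and 770 tags, 11.2-fold higher. Like PSBQA it had its highest count at 48 h, but it kept more tags at 72 h than at 0 h. FED A, the ferredoxin that takes electrons from photosystem I, rose in 1 gene (Pp1s381_46V6, 194 to 916 tags) and fell in 3, among them Pp1s146_120V6 (131 to 0 tags).

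Of 44 genes tested in the antenna list, which includes relatives of the antenna, 5 rose and 6 fell, and under total tags 2 rose and 10 fell. ELIP1 names early light-inducible proteins, relatives of the antenna that appear in thylakoids under light stress. Pp1s371_45V6 had 0, 127, 1767 and 209 tags, at least 109-fold higher at 72 h, and Pp1s196_69V6 had 2, 391, 1164 and 151 tags, 118-fold higher (32.1 to 985). Both were present at 24 h, at the end of the dark period, and highest at 48 h. These ELIP1 genes were the only 2 rises of the list under total tags. LHCA2 (Pp1s330_37V6), an antenna protein of photosystem I, rose 6.51-fold from 255 to 1060 tags, though not under total tags. NPQ4 (Pp1s31_279V6), the photosystem II subunit that senses excess light, fell 6.77-fold from 1579 to 149 tags. LIL3:1 (Pp1s336_22V6), needed for chlorophyll synthesis, fell 27.02-fold from 296 to 7 tags. In LHCB2.1, an antenna protein of photosystem II, 2 of 10 tested genes fell and 0 rose. One of them, Pp1s12_390V6, fell 13.8-fold from 238 to 11 tags.

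Chlorophyll and haem come from 1 branched pathway, of whose 27 tested genes 3 fell and 1 rose (5 and 0 under total tags). HEMC and HEME2, which act in the common part, fell: HEMC in Pp1s116_53V6 (4.80-fold) and Pp1s307_65V6 (8.90-fold), and HEME2 in Pp1s114_123V6 (7.597-fold). Ferrochelatase 2 (FC2, Pp1s371_25V6), which makes haem, rose 5.90-fold from 146 to 550 tags, but not under total tags. In photorespiration, which recycles the side product of rubisco, 4 of 20 genes fell and 3 rose, and none rose under total tags. PGLP1 (Pp1s34_237V6), its first enzyme, had 293, 15, 722 and 5 tags, 37.4-fold lower, and HPR (Pp1s414_8V6), hydroxypyruvate reductase, fell 12.5-fold. AGT, alanine:glyoxylate aminotransferase, had ratios of 4.42 (Pp1s19_25V6) and 4.52 (Pp1s369_6V6), both called higher with TMM only.

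Genes of pyruvate dehydrogenase and the citric acid cycle, and of the respiratory chain, were called higher more often than lower with TMM. The first of these lists also holds plastid enzymes, among them PDH-E1 ALPHA and LPD1, so its rises are not all of respiration. In the pyruvate dehydrogenase and citric acid cycle list, 9 of 50 genes rose and 2 fell, with a median log2 ratio of 0.71. Under total tags 5 rose and 4 fell, and the median was -0.05. Besides PDH-E1 ALPHA, MDH (Pp1s79_110V6), malate dehydrogenase, had 58, 51, 612 and 675 tags, 18.2-fold higher (13.9 to 24.3). Whether this MDH gene encodes a plastid or a mitochondrial form was not tested, so it need not belong to the citric acid cycle. IDH-V (Pp1s83_44V6), a subunit of isocitrate dehydrogenase, rose 10.7-fold from 36 to 246 tags. LPD1 (Pp1s35_94V6), a lipoamide dehydrogenase of the plastid complex, rose 6.20-fold with TMM only. IAR4 (Pp1s56_222V6), the mitochondrial counterpart of PDH-E1 ALPHA, fell from 104 to 0 tags, at least 22.2-fold.

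In the respiratory chain, 6 of 57 genes rose and 1 fell, with a median of 0.98 (0.21 under total tags, where 2 rose and 2 fell). The risen genes included complex I subunits (Pp1s9_379V6, 59 to 1030 tags, 27.3-fold; Pp1s83_49V6, 52 to 718 tags, 21.6-fold). Another subunit of the same complex (Pp1s15_384V6) fell 6.63-fold. Respiratory chain genes held 0.391%, 0.385%, 0.680% and 0.561% of the tags at 0, 24, 48 and 72 h.

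Glycolysis, which breaks sugars to pyruvate, had 7 of 80 genes higher and 3 lower, but 2 higher and 9 lower under total tags. GAPC2 (Pp1s353_25V6), the cytosolic glyceraldehyde-3-phosphate dehydrogenase, rose 9.75-fold from 898 to 5595 tags, and the plastid pyruvate kinase PKP-BETA1 (Pp1s205_25V6) rose 9.26-fold. Phosphofructokinase genes went both ways: PFK5 (Pp1s114_31V6) fell 18.3-fold and PFK4 (Pp1s81_165V6) 5.36-fold, while Pp1s167_20V6 rose 5.79-fold and MEE51 (Pp1s183_75V6) 5.50-fold, both of the latter with TMM only. Of 53 genes of the glyoxylate cycle and peroxisomal beta-oxidation, 3 rose and 1 fell, but 3 rose and 4 fell under total tags, and the median log2 ratio of 0.26 became -0.50. PCK1 (Pp1s60_266V6), which feeds the making of sugars from organic acids, fell 16.7-fold from 522 to 20 tags.

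Among genes of detoxification, glutathione S-transferases rose and none was called lower. Of 23 glutathione S-transferase genes, 8 rose and 0 fell with TMM, and 6 rose and 0 fell under total tags. Their tags went from 1.998% of the library at 0 h (1.98 to 2.02) to 12.4% at 72 h (12.3 to 12.4), after 1.08% at 24 h and 0.675% at 48 h. Without the genes above 1% of a library, the change was from 0.854% to 3.49%. Besides GSTF9 and GSTF10, Pp1s126_26V6 went from 2569 to 23218 tags, 14.1-fold higher, and the microsomal Pp1s182_83V6 had 21, 22, 234 and 768 tags, 57.2-fold higher (37.2 to 93.0). GSTF9, GSTF10 and Pp1s126_26V6 had fewer tags at 24 and 48 h than at 0 h, while the microsomal gene had more tags at 48 h than at 0 h.

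Antioxidant enzymes had 7 of 34 genes higher and 0 lower with TMM, and 6 higher and 3 lower under total tags. Peroxiredoxin Q (ATPRX Q) was counted with the thioredoxins by its description and not here, and 2 of its 3 tested genes were called lower. Their median log2 ratio was 0.50 with TMM and -0.26 under total tags. They held 0.682% of the tags at 0 h (0.672 to 0.693) and 2.17% at 72 h (2.15 to 2.19), most of it on CSD1. The 3 called PER1 genes rose, Pp1s12_126V6 as described, Pp1s40_134V6 28.8-fold from 8 to 147 tags, and Pp1s32_349V6 15.7-fold. The glutathione peroxidase GPX6 (Pp1s98_2V6) rose 7.15-fold, the mitochondrial peroxiredoxin PRXIIF (Pp1s31_128V6) 7.37-fold and the catalase CAT1 (Pp1s3_465V6) 5.16-fold, the last with TMM only.

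Among 77 thioredoxins and glutaredoxins, which pass electrons to protein thiols, 13 rose and 3 fell (7 and 10 under total tags). HCF164 (Pp1s251_36V6), a thylakoid thioredoxin-like protein, rose 17.2-fold, a glutaredoxin (Pp1s185_2V6) 14.5-fold and TRX1 (Pp1s21_318V6) 9.97-fold. Those that fell were ATPRX Q, in both of its called genes, and 1 gene of the plastid thioredoxin ATHM2 (Pp1s317_49V6), of which 2 other genes rose, Pp1s106_67V6 14.6-fold and Pp1s23_109V6 8.81-fold. Class III peroxidases, secreted enzymes that act on wall phenolics, went down: 6 of 15 genes fell and 1 rose under both scalings, with a median log2 ratio of -3.52. Pp1s35_32V6 had 243, 7, 4 and 0 tags, at least 51.8-fold lower, and Pp1s20_77V6 had 164, 0, 5 and 0, at least 34.9-fold lower. Both were nearly gone by 24 h. The peroxidase that rose (Pp1s37_275V6) had 54, 18, 7 and 456 tags, 13.2-fold higher.

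LEA and dehydrin genes were called higher more often than the background. Of 32 genes, 11 rose and 1 fell (8 and 2 under total tags), with a median log2 ratio of 1.59 (0.82 under total tags). Pp1s156_7V6 had 18, 1555, 753 and 519 tags, 45.1-fold higher (28.3 to 76.7), Pp1s161_8V6 had 28, 573, 181 and 763 tags, 42.6-fold higher, and the dehydrin ERD10 (Pp1s442_22V6) had 346, 1541, 721 and 893 tags, 4.04-fold higher with TMM only. Their courses differed, as the second of these was highest at 72 h and the others at 24 h. The list held 0.685% of the tags at 0 h and 0.753% at 72 h, with 1.71% and 1.05% at 24 and 48 h. GEA6 (Pp1s12_68V6), matched to a seed stress protein, was the exception, with 119, 2, 0 and 0 tags.

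Heat shock proteins and chaperones, which fold proteins, fell in 20 and rose in 9 of 196 genes (31 and 3 under total tags). HSP21 (Pp1s97_106V6), a small heat shock protein of plastids, had 1063, 96, 0 and 15 tags, 45.3-fold lower (27.3 to 81.2), and the co-chaperone BAG6 (Pp1s107_77V6) had 439, 7, 0 and 7 tags, 40.1-fold lower. Both were near 0 by 48 h. A DnaJ-like gene (Pp1s301_31V6) had 79, 82, 3516 and 483 tags, 9.57-fold higher. The list held 1.91% of the tags at 0 h, and 1.07%, 1.06% and 1.08% at 24, 48 and 72 h.

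**Figure D4:**
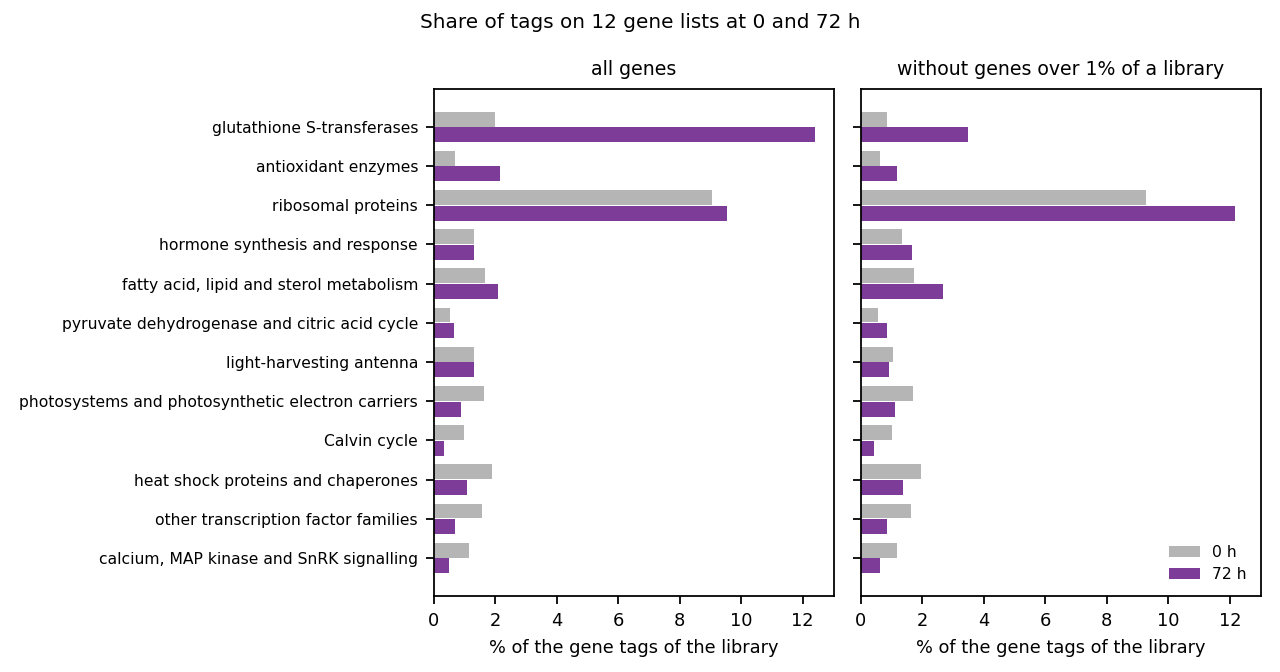
Share of the gene tags of the 0 h (grey) and 72 h (purple) libraries on 12 gene lists, in %, over all genes (left) and without the genes above 1% of any library (right); bars start at 0 and each is 1 library. Glutathione S-transferases went from 1.998% to 12.4% over all genes, and from 0.854% to 3.49% without the genes above 1%.

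Ribosomal protein genes were called in both directions, and the scaling decided which was the more frequent. Of 441 genes, 65 rose and 33 fell with TMM, and 38 rose and 65 fell under total tags, with median log2 ratios of 0.42 and -0.35. Their tags were 9.04% of the library of fresh protoplasts (9.005 to 9.08) and 9.54% of that at 72 h (9.51 to 9.58), with 11.1% and 16.1% at 24 and 48 h. An L6 gene (Pp1s126_112V6) had 4, 66, 110 and 304 tags, 119-fold higher (46.0 to 439), RPL10B (Pp1s447_11V6) rose 42.0-fold, and an L10 gene (Pp1s39_424V6) rose 37.9-fold from 173 to 4192 tags. An L29e gene (Pp1s28_307V6) fell 17.03-fold from 2771 to 104 tags, and an L31 gene (emb2184, Pp1s378_8V6) fell 33.9-fold. Of 13 genes named as plastid ribosomal proteins, 3 rose and 2 fell with TMM, and 2 rose and 4 fell under total tags, with median log2 ratios of 0.37 and -0.40. This list was added after values were seen. Membership went by name, so plastid ribosomal proteins without such a name are not counted, and the balance holds for the named genes only. The S20 genes went both ways, Pp1s94_105V6 10.3-fold higher and Pp1s323_3V6 18.7-fold lower.

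Of 141 translation factors and tRNA synthetases, 13 rose and 12 fell (3 and 18 under total tags). EIF3B-2 (Pp1s138_36V6), a subunit of the initiation factor that gathers the scanning ribosome, rose 16.8-fold from 78 to 835 tags, in contrast to the SUI1 gene. An elongation factor gene of the EFG/EF2 family (Pp1s266_52V6) fell from 276 to 3 tags, 58.8-fold lower.

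The proteasome, which degrades proteins tagged with ubiquitin, had 7 of 66 genes higher and 3 lower with TMM, and 3 higher and 8 lower under total tags. RPT5A (Pp1s218_133V6), an ATPase of its cap, had 329, 920, 401 and 2987 tags, 14.2-fold higher (12.7 to 15.97). PA200, an activator of the proteasome, fell in both of its called genes, 5.18-fold (Pp1s166_99V6) and 4.13-fold (Pp1s83_214V6). Among 338 ubiquitin ligases and ubiquitin genes, 33 fell and 14 rose (53 and 6 under total tags). UBQ12 (Pp1s4_496V6) went from 157 to 0 tags, at least 33.4-fold lower. In the list of proteases and autophagy, 10 of 131 fell and 6 rose (21 and 5 under total tags). ATG8C (Pp1s209_118V6), which coats the membranes of autophagy, fell 19.1-fold from 686 to 23 tags, and the metacaspase MC4 (Pp1s43_236V6) fell 18.3-fold. RD21 (Pp1s369_30V6), a cysteine protease, rose 58.4-fold from 9 to 336 tags.

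Of 98 genes of the cell cycle and DNA replication, 11 had the 100 tags that a call needs. Of these, 5 rose and 1 fell (2 and 1 under total tags), and the median log2 ratio over the 98 was -0.55. CAK1AT (Pp1s121_167V6), a kinase that activates the kinases of the cycle, had 55, 48, 0 and 942 tags, 26.8-fold higher (20.4 to 35.9). RPA70C (Pp1s222_133V6), which binds single-stranded DNA in replication and repair, rose 12.2-fold, and a cyclin-like gene (Pp1s147_86V6) had a ratio of 5.65 that was called with TMM only. SYN1 (Pp1s351_7V6), a cohesin subunit of meiosis in Arabidopsis, went from 136 to 0 tags. Of 12 histone genes 1 rose, Pp1s3_368V6, from 67 to 277 tags, with TMM only. Among 113 chromatin modifiers 5 fell and 2 rose (7 and 1 under total tags), with HUB1 (Pp1s242_100V6), a ligase that marks histone H2B with ubiquitin, 10.7-fold lower.

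DNA repair genes were called in both directions, 4 of 46 higher and 6 lower (3 and 7 under total tags). XRCC4 (Pp1s147_88V6), of end joining, rose 25.04-fold from 7 to 112 tags. The photolyase PHR2 (Pp1s43_21V6) fell 8.68-fold from 394 to 29 tags, and a DNA glycosylase (Pp1s246_24V6) fell 10.6-fold.

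In the cytoskeleton, ACT7 (Pp1s337_21V6), an actin of growing tissue, had 155, 112, 135 and 1869 tags, 18.9-fold higher (16.01 to 22.4). A myosin (XIE, Pp1s131_123V6) went from 220 to 5 tags, 28.1-fold lower, and an actin cross-linking protein (Pp1s119_48V6) from 1099 to 33, 21.3-fold lower. Of the 92 genes of this list, 3 rose and 4 fell (1 and 6 under total tags). Among 216 genes of vesicle traffic, 14 rose and 15 fell (6 and 27 under total tags). ARFA1B (Pp1s70_130V6), a small GTPase of coat assembly, had 154, 323, 1626 and 2016 tags, 20.5-fold higher. EXO70G1 (Pp1s97_91V6), of the exocyst that docks vesicles at the plasma membrane, rose 20.5-fold from 9 to 118 tags. DL3 (Pp1s426_19V6), a dynamin-like protein, fell 75.4-fold from 236 to 2 tags.

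In the lists of the cell wall, more genes were called lower than higher. Of 59 genes of wall loosening and remodelling, 9 fell and 4 rose (15 and 3 under total tags), with a median log2 ratio of -1.77. The summed tags of this list did not fall, with 0.729% of the library at 0 h and 0.756% at 72 h. Those of wall polymer synthesis went from 0.430% to 0.197%. XTH9 (Pp1s81_246V6), which cuts and rejoins xyloglucan, had 994, 28, 154 and 39 tags, 16.3-fold lower (11.8 to 23.0). Pectin enzymes were found on both sides: a pectin lyase-like gene (Pp1s236_72V6) fell 21.2-fold, while PME31 (Pp1s14_353V6), a pectin methylesterase, rose 18.4-fold and the polygalacturonase PG1 (Pp1s298_14V6) 9.51-fold. Of 66 genes of wall polymer synthesis, 8 fell and 2 rose (10 and 1 under total tags). CSLD6 (Pp1s372_55V6), of the cellulose synthase-like family, fell 9.63-fold from 226 to 15 tags, and UXS4 (Pp1s120_29V6), which makes UDP-xylose, fell 10.8-fold.

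Genes of regulation fell more often than they rose. AP2/ERF factors, which in flowering plants act in stress and ethylene responses, fell in 13 of 88 genes and rose in 3 (18 and 1 under total tags), with a median log2 ratio of -1.46. Of 5 called genes matched to RAP2.11, 4 fell and Pp1s195_38V6 rose 7.04-fold from 28 to 126 tags. CRF2 (Pp1s21_247V6), a cytokinin response factor, fell 6.20-fold, ERF-1 (Pp1s60_148V6) 5.80-fold and TINY2 (Pp1s480_12V6) 19.4-fold. Among 303 genes of other transcription factor families, 34 fell and 11 rose (49 and 6 under total tags). WRKY50 (Pp1s426_30V6) and HB16 (Pp1s108_47V6) lost all their tags, from 211 and 177, while WRKY7 (Pp1s48_141V6) rose 12.9-fold from 96 to 788 tags. NF-YB11 (Pp1s217_34V6), of the CCAAT-binding complex, rose 37.6-fold from 5 to 120 tags, and a myb-like factor (Pp1s91_241V6) rose 42.7-fold from 24 to 655.

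Receptor-like kinases, which sense signals at the cell surface, fell in 15 of 109 genes and rose in 1 (17 and 1 under total tags). A lectin kinase gene (Pp1s155_56V6) had 177, 91, 0 and 0 tags, at least 37.7-fold lower, and the leucine-rich repeat kinase that rose (Pp1s18_345V6) went from 21 to 131. Of 127 genes of calcium, MAP kinase and SnRK signalling, 15 fell and 2 rose (29 and 0 under total tags). An EF-hand calcium-binding gene (Pp1s107_173V6) had 1199, 393, 4 and 15 tags, 51.1-fold lower (30.8 to 91.6), and MPK4 (Pp1s99_26V6), a MAP kinase, went from 190 to 2 tags, 60.7-fold lower.

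Hormone genes were called in both directions. Jasmonates and the related oxylipins are made from membrane fatty acids by lipoxygenase, allene oxide synthase and allene oxide cyclase, and this moss is known to make the precursor rather than jasmonic acid itself. Of 17 tested genes of this pathway, 6 rose and 1 fell (5 and 1 under total tags), with a median log2 ratio of 1.10 (0.33 under total tags). This list was added after values were seen, so its share of rises against the background is a description and no evidence. LOX1 (Pp1s434_27V6) rose 7.28-fold from 971 to 4519 tags, AOS (Pp1s97_112V6) 8.30-fold, and AOC3 (Pp1s378_11V6), with 71, 41, 318 and 1529 tags, 33.7-fold (26.6 to 43.4). OPR2 genes went both ways, Pp1s9_107V6 26.7-fold higher and Pp1s21_97V6 6.71-fold lower. In the wider list of hormone synthesis and response, 14 of 126 fell and 8 rose (19 and 5 under total tags). Of the auxin response genes, ARF6 (Pp1s119_32V6) went from 155 to 0 tags, at least 33.0-fold lower, and IAA7 (Pp1s73_11V6) from 108 to 2 tags, 34.5-fold lower. An HVA22-like gene described as responsive to abscisic acid (Pp1s186_66V6) fell 39.9-fold. TIFY10B (Pp1s442_10V6), a repressor of the jasmonate response, fell 5.60-fold, IPT9 (Pp1s280_8V6), of cytokinin synthesis, 15.6-fold, and ABI3 (Pp1s104_58V6), a factor of abscisic acid signalling in seeds, 7.03-fold. The auxin response factor gene ARF2 (Pp1s280_7V6) rose 5.36-fold, with TMM only.

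Nitrogen assimilation had no rise among 47 genes, of which 8 fell (13 under total tags). Glutamine synthetase and glutamate synthase bring ammonium into amino acids. GS2 (Pp1s40_17V6), the plastid glutamine synthetase, had 1033, 79, 1198 and 112 tags, 5.89-fold lower (4.85 to 7.23), and GLT1, the glutamate synthase that uses NADH, fell 11.7-fold (Pp1s93_131V6) and 7.96-fold (Pp1s81_196V6). SERAT1;1 (Pp1s212_107V6), which starts cysteine synthesis, had 1726, 13, 2 and 27 tags, 40.8-fold lower (28.0 to 62.2). In the methyl cycle, 3 of 14 genes fell and 0 rose under both scalings. Both called ATMS1 genes, methionine synthases, fell, 7.33-fold (Pp1s27_81V6) and 4.53-fold (Pp1s33_110V6).

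Lipid genes were called in both directions, 18 of 200 higher and 19 lower (9 and 27 under total tags). SSI2 (Pp1s157_50V6), the stearoyl-ACP desaturase that makes oleic acid in plastids, had 32, 193, 28 and 1478 tags, 72.3-fold higher (51.0 to 106.1). A GDSL lipase (Pp1s51_28V6) had 313, 3858, 99 and 9904 tags, 49.5-fold higher, and a lipid-transfer protein (Pp1s139_88V6) fell 56.2-fold from 440 to 5. In starch and sucrose metabolism, 6 of 77 rose and 8 fell (3 and 9 under total tags). The genes that rose included the large subunit of ADP-glucose pyrophosphorylase, the first step to starch (APL1, Pp1s36_158V6, 24.2-fold, and Pp1s237_47V6, 7.37-fold; APL2, Pp1s175_26V6, 23.9-fold). SS4 (Pp1s34_269V6), which starts starch granules, fell from 227 to 2 tags, 72.5-fold lower, and AMY1 (Pp1s223_59V6), an alpha-amylase, fell 24.4-fold.

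Of 317 transporters and channels, 31 fell and 12 rose (52 and 5 under total tags). NIP5;1 (Pp1s37_249V6), a channel for boric acid, had 49, 3142, 404 and 1565 tags, 49.98-fold higher (37.6 to 67.9), and PTR1 (Pp1s114_7V6), a peptide transporter, rose 18.4-fold. PDR1 (Pp1s280_39V6), an ABC exporter, went from 198 to 0 tags, and a vacuolar iron transporter (Pp1s44_232V6) fell 29.4-fold from 553 to 12. Among 69 genes of cytochromes P450 and phenylpropanoids, 7 rose and 6 fell with TMM, and 6 rose and 10 fell under total tags. CYP98A3 (Pp1s366_10V6), of the route to phenolic esters, went from 185 to 0 tags, while a chalcone isomerase-like gene (Pp1s67_154V6) rose 72.2-fold from 8 to 369 tags and CYP710A1 (Pp1s22_283V6), a sterol desaturase, 19.96-fold.

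Of 262 splicing and RNA-binding proteins, 13 rose and 15 fell (7 and 27 under total tags), and of 41 pentatricopeptide repeat proteins, which edit and process RNA in organelles, 1 rose and 4 fell (1 and 5). The plastid RNA-binding protein CP29 (Pp1s260_4V6) fell 25.6-fold from 401 to 10 tags, and the RNA helicase emb1138 (Pp1s7_15V6) fell 61.6-fold from 868 to 9. An SRP72-type RNA-binding gene (Pp1s234_73V6) rose 19.6-fold from 76 to 954.

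**Figure D5:**
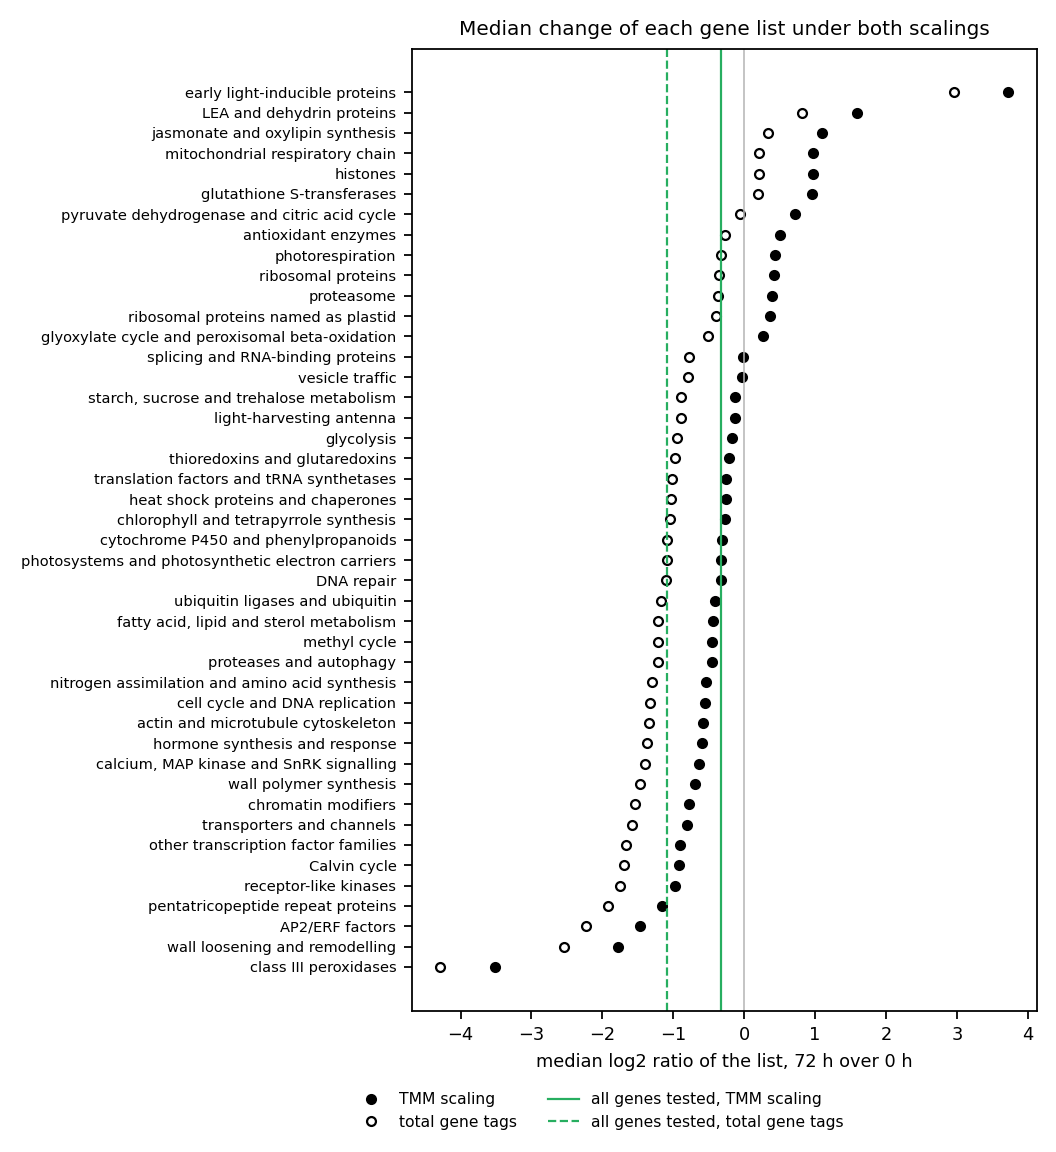
Median log2 ratio of 72 h over 0 h in each of 44 gene lists, scaled by TMM (filled circles) and by total gene tags (open circles), with the medians of all tested genes as green lines at -0.32 (solid) and -1.09 (dashed). With TMM 13 lists lie above 0, and under total tags 6 do.

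Genes that the study had also measured by qRT-PCR, with their reference gene, showed a call in 2 of 9 cases. WOX13 (Pp1s224_106V6), a homeodomain factor of the family of the stem cell regulator WUSCHEL, fell 44.9-fold (17.3 to 166) between 0 and 72 h. TOM3 (Pp1s237_67V6), a membrane protein first known from virus multiplication, had 769, 596, 172 and 2874 tags, 5.85-fold higher, a call that total tags do not give. EMB1467 (Pp1s170_67V6), a subunit of complex I, and MEE58 (Pp1s20_229V6), which clears S-adenosylhomocysteine, had ratios of 2.35 and 3.56. MAPR3 (Pp1s97_92V6) and the cell cycle gene CKS2 (Pp1s36_271V6) had ratios of 2.60 and 1.62, the latter below 1 under total tags. LPD1 (Pp1s352_68V6) was 1.80-fold and the reference gene HSC70-1 (Pp1s97_279V6) 2.20-fold lower, neither called. Total tags, which shift every log2 ratio by -0.77, put both lower still. The study had chosen HSC70-1 as a gene of relatively stable expression over its libraries. KT1 (Pp1s91_133V6), a potassium transport gene, went from 61 to 0 tags, too few for a call.

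Related genes did not always move together. Of 1445 symbols shared by at least 2 tested genes, 30 had genes called in opposite directions, 22 had at least 2 called genes that all rose and 54 at least 2 that all fell. The examples that follow were chosen after their values were seen. FAD6, the desaturase of plastid lipids, had 0, 0, 0 and 117 tags in Pp1s81_78V6 and 877, 307, 688 and 17 in Pp1s246_57V6. XYL1, an alpha-xylosidase that trims xyloglucan, rose 42.6-fold in Pp1s43_19V6 (63 to 1714 tags) and 31.9-fold in Pp1s6_50V6, and went from 100 to 0 tags in Pp1s119_138V6. UGE5, which interconverts UDP-glucose and UDP-galactose, rose 11.9-fold in Pp1s1_372V6 (50 to 381 tags) and fell 9.26-fold in Pp1s101_67V6 (1145 to 79 tags). LHCB2.2 rose in Pp1s23_96V6 (288 to 1056 tags, with TMM only) and fell 5.33-fold in Pp1s99_95V6. Tags that matched more than 1 gene had been removed, so counts of near-identical copies are uncertain.

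The genes called at 72 h took different routes there. Of the 875 genes called higher, 719 were highest at 72 h itself, and 130 and 26 had a higher level at 48 and 24 h respectively. Already at 24 h, 140 (16%) were at least 4-fold above 0 h, and 307 (35.1%) were at 48 h and 90 at all 3 times, while 327 were at least 4-fold higher at 72 h than in each other library. Of the 1135 genes called lower, 316 (27.8%) were already at least 4-fold down at 24 h, 599 (52.8%) at 48 h and 194 at all 3 times. Of the same genes, 699 had their lowest level at 72 h and 348 at 48 h, and 157 had been highest at 48 h. These counts share the 0 h library and the choice of genes by 72 h against 0 h, so they describe the courses and are no separate evidence.

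Of the called genes, 115 of those that rose and 138 of those that fell had no Arabidopsis match, among 1901 such genes tested. The gene with the most tags at 72 h and none at 0 h was undescribed: Pp1s25_107V6, chosen after its values were seen, had 0, 707, 755 and 951 tags, at least 496-fold higher at 72 h.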

How the data were processed

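DGE tags of 4 pooled libraries were used, 1 per time point. The authors cut cDNA with NlaIII and MmeI into tags of CATG and 17 bases, removed tags with adaptor sequence, of low quality or seen once, and mapped the rest to the moss gene sequences with at most 1 mismatch. The tool named in the submitters' processing notes is Bowtie. Tags of more than 1 gene were dropped. The deposited files give whole-number tag counts of 18800 genes, which were used for all tests. A second deposited column, headed TPM, was found to hold tags per 100000 clean tags and served only to recover the clean totals. No reference genome was used, and no sequence is shown.

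Libraries were scaled by TMM over the 4 libraries (factors 1.18, 1.33, 0.914 and 0.694 at 0, 24, 48 and 72 h). Genes with at least 10 tags in the 0 and 72 h libraries were tested with edgeR's exact test, with the dispersion at 1e-09 since replicates do not exist, and adjusted by Benjamini-Hochberg. The call thresholds stand in the results. Ratios carry exact conditional (Clopper-Pearson) 95% intervals, and a count of 0 was replaced by 3 tags. The test was also run on simulated counts that held counting error only, as the test itself assumes. Such a run cannot show how the test behaves with spread between cultures or with amplified tags. The 2 tested libraries have no replicate check.

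Genes named are the 12 largest rises and 12 largest falls with an annotation, ordered by whichever interval end lies closer to 1, up to 3 called genes a direction in each list, the 10 genes with most tags at 0 h and at 72 h, and the study's qRT-PCR genes. Any other was chosen after its values were seen, and a few genes that the rule names are not reported here. The lists and members were chosen with earlier results of these data known: 41 lists were fixed first, and 410 entries that matched a pattern but not its meaning were left out after the files were opened. After values were seen, 3 lists were added (early light-inducible proteins, ribosomal proteins named as plastid, jasmonate and oxylipin synthesis). Other scalings, count minimums and fold limits were tried as alternatives. Tests ran in R 4.3.3 with edgeR 4.0.16 and, for size factors, DESeq2 1.42.0. Tables and plots were made in Python 3.11.15 with matplotlib 3.10.9, pandas 2.3.3, scipy 1.17.1 and numpy 2.4.6.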

Additional observations from a re-analysis of the deposited data

How the results depend on the processing

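The number of genes called depended on the scaling and on the thresholds. Against 875 genes higher and 1135 lower with TMM, total gene tags gave 485 and 1808, and clean tags 524 and 1718. All 485 genes higher under total tags were also called higher with TMM, and all 1135 genes lower with TMM stayed called under total tags. A 2-fold limit gave 1641 higher and 2019 lower, an 8-fold limit 395 and 602. A minimum of 50 tags in the higher library gave 1144 higher and 1755 lower, and one of 200 tags 601 and 626. DESeq2 size factors gave 921 and 1077, TMM over the 2 libraries 921 and 1080, and TMM without the genes above 1% of a library 916 and 1078. The median log2 ratio of all genes tested was -0.32 with TMM, -1.09 under total tags, -0.995 under clean tags and -0.49 without the minimum of 10 tags. DESeq2 and both other TMM scalings left it at -0.25. The share of calls that were higher was 43.5% with TMM, 21.2% under total tags, 23.4% under clean tags, 39.5% at 50 tags, 49.0% at 200 tags and 39.6% at 8-fold.

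Of 238 named genes that were called, 217 stayed called under total tags and the 21 others, all higher at 72 h, did not. The medians of 7 lists changed sign under total tags: the pyruvate dehydrogenase and citric acid cycle, antioxidant, photorespiration, ribosomal, proteasome, plastid ribosomal, and glyoxylate lists. No paired analysis was possible because each time point has 1 library, and no replicate could be left out for the same reason. The counts do not tell which scaling is nearer to the RNA per cell. The depth of the libraries limits genes near 3 tags, and differences between cultures were not measured.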
